A study of Mus musculus with 79 samples.

Results

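Sox3 is a SoxB1 transcription factor, a close relative of Sox1 and Sox2, and is expressed in neural progenitors. Single cells carrying both T and Sox2 were divided by whether they also held Sox3 mRNA. Members were selected on 1 reading: the 22 cells with Sox3 at 1 FPKM or more (fragments per kilobase of transcript and M mapped fragments) are called Sox3-positive. The other 31 of the 53 cells, all below 1 FPKM, are called Sox3-low.

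All 53 cells were sorted as T+ Sox2+ from the caudal ends of wild-type C57BL/6N mouse embryos at Theiler stage 13 (TS13). Embryos were made from embryonic stem (ES) cells by tetraploid complementation, where tetraploid host cells supply extraembryonic tissue and the ES cells form the embryo. Tissue was pooled before sorting, the cells were captured together on a Fluidigm C1 chip, and no label ties a cell to an embryo. Each group therefore counts as 1 sample, cells are not replicates, and no comparison between the groups carries a p-value. The 9 bulk RNA libraries of the series, 1 for each group, were used only where stated. They include T+, T+ Sox2+ and Sox2+ fractions of wild-type C57BL/6N embryos at TS12. A second set is T+ cells of wild-type C57BL/6N embryos and of T2J/2J embryos (T knockout, on C57BL/6J) at TS12 and TS13.

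Neuro-mesodermal progenitors lie at the tail end of the embryo and supply cells to the spinal cord as well as to paraxial mesoderm. T (Brachyury), a T-box factor, is needed for mesoderm formation, and Sox2 maintains neural and progenitor identity. Cells that leave towards mesoderm switch on Tbx6 and Msgn1, and cells that enter the neural plate keep Sox2 and switch on Sox1.

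Sox3 was read at 1 FPKM or more in 41.5% of cells (exact 95% interval 28.1% to 55.9%, which covers counting error only). Among Sox3-positive cells it ran from 1.18 to 36.1 FPKM with a median of 6.00. Of the Sox3-low cells, 28 were listed at 0 and 3 lay between 0 and 1. The division is therefore mostly between cells with a reading and cells listed at 0. The 3 Sox3-low cells just outside the threshold had 0.303, 0.311 and 0.360 FPKM, and the 3 lowest inside it had 1.18, 1.43 and 1.43 FPKM. Only 6 cells reached 10 FPKM. In the bulk fractions, which the division did not use, Sox3 was at 0.403 FPKM in T+, 6.61 in T+ Sox2+ and 31.1 in Sox2+ cells, and in bulk fewer cells of a type and less RNA per cell cannot be told apart. Its gene lies on chromosome X at 60891366 to 60893430 (RefSeq, GRCm38.p6) and no other listed gene overlaps it.

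The markers used for sorting were checked in the cells. T was at 1 FPKM or more in all 53 cells. Sox2 was at 1 FPKM or more in 46 of 53 cells, so mRNA of the sorted marker was below 1 FPKM in the other 7.

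The number of genes at 1 FPKM or more ran from 4075 to 9001 in Sox3-positive cells, with a median of 6236 and a mean of 6377 ± 1194 (SD over 22 cells). In Sox3-low cells it ran from 4185 to 8021, with a median of 5670 and a mean of 5882 ± 823 (SD over 31 cells). The groups overlapped over most of their range, and the median was 566 genes higher in Sox3-positive cells. Sequencing depth per cell is unknown. Sox3 readings were also uneven over the numbers in the cells' titles. Among cells titled CS37 to CS47, 10 of 11 were Sox3-positive, against 9 of 36 titled CS1 to CS36 and 3 of 6 titled CS90 to CS95. The CS37 to CS47 cells also had the most genes, with a median of 7703 against 5724 in CS1 to CS36. Without them the direction of the gene number turned, and the median of Sox3-positive cells minus that of Sox3-low cells was -163 genes. Over CS1 to CS47 the title number and the gene number had Spearman's rho of 0.81 and Pearson's r of 0.80 (47 cells of 1 chip, a description). What the title number stands for is not given in the labels, and its part in the results was not tested. Differences below are therefore also given without CS37 to CS47 (12 Sox3-positive and 30 Sox3-low cells) beside each gene and list median where leaving them out turns its direction, moves it past or back over 1, or moves a gene's value by over 1.5 times.

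**Figure D1:**
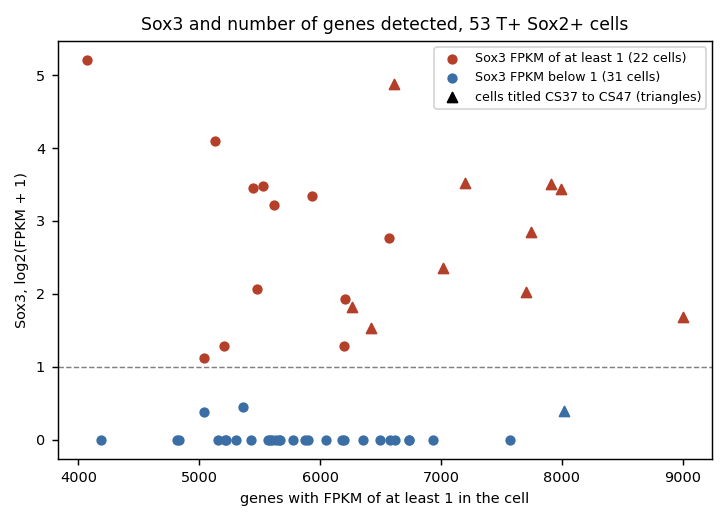
Sox3 level, as log2(FPKM + 1), against the number of genes with at least 1 FPKM, 1 point per cell. Red marks the 22 cells at or above the threshold (dashed line), blue the 31 below it, and triangles the cells titled CS37 to CS47, of which 10 of 11 are red.

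Other genes were compared on log2(FPKM + 1). The difference is Sox3-positive minus Sox3-low, from a linear fit per gene that includes the number of genes in the cell, and it is called the adjusted difference. Genes with at least 1 FPKM in at least 10 cells were compared, 8762 in all. A difference of 1 is 2-fold on that scale, which understates the change of low genes. Of the compared genes, 319 (3.64%) were higher by at least 1 in Sox3-positive cells and 321 (3.66%) were lower by at least 1. Without the term for gene number the split was 544 higher and 121 lower, and the median over all compared genes moved from -0.007 to 0.14. Leaving out the cells titled CS37 to CS47 gave 690 higher and 579 lower, and 253 and 232 of the original genes stayed past 1.

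The SoxB1 family was read first. Sox2 was at a median of 24.1 FPKM (0 to 63.0) in Sox3-positive cells and 20.6 FPKM (0 to 77.4) in Sox3-low cells. Its log2 level was 3.90 ± 1.98 against 3.89 ± 1.68 (mean ± SD over cells), and the adjusted difference was -0.12. The ranges of Sox2 overlapped almost whole. Without the CS37 to CS47 cells the Sox2 difference was -0.68, and with Sox3-positive set at 5 FPKM it was 0.66. Its direction therefore changed with the cells chosen. Sox1, a marker of committed neural plate, was at 1 FPKM or more in 5 of 22 Sox3-positive cells (22.7%, exact 95% interval 7.82% to 45.4%) and in 0 of 31 Sox3-low cells, which allows a share of up to 9.68% by the rule of 3 counts (exact 95% upper bound 11.2%). These limits cover cells with a reading, not cells expressing the gene. It was listed at 0 in all Sox3-low cells and in the other 17 Sox3-positive cells. The 5 cells had Sox1 at 1.34, 2.37, 3.88, 5.70 and 12.1 FPKM, beside Sox3 at 28.5, 1.43, 2.53, 10.4 and 10.2 FPKM in the same order. Of these cells, 3 were titled CS37 to CS47; of the remaining cells, 2 of 12 Sox3-positive and 0 of 30 Sox3-low had Sox1. Sox1 was seen in too few cells to be among the compared genes. Its counts are not adjusted for gene number. How often genes seen in so few cells lie within a single Sox3 group was not counted, so the split is a description. In the bulk fractions it stood at 0.180 FPKM in T+, 5.28 in T+ Sox2+ and 28.3 in Sox2+ cells, an order like that of Sox3.

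The neural list, which includes Sox1 and Sox2, had a median near 0. Of its 43 genes, 20 were compared and 0 of those were past 1 in either direction. Their median adjusted difference was -0.02, with 10 above 0 and 10 below, beside -0.007 over all compared genes. Differences ran from -0.49 for Dach1, a transcriptional cofactor, to 0.60 for Zic2, a zinc finger factor of the neural plate. Without CS37 to CS47 the list median was -0.04 and Zic2 had 0.37. Hes5, a Notch effector of neural progenitors, had 0.50. Pax6, a factor of the maturing neural tube, was at 1 FPKM or more in 5 of 22 Sox3-positive and 6 of 31 Sox3-low cells. Irx3, another neural tube factor, was found in 5 cells of each group. The remaining 23 neural genes reached 1 FPKM in 8 cells at most. Of these, 10 were below 1 FPKM in every cell, among them Olig2 and Neurog1, which mark neuronal precursors. Summed FPKM of the whole list ran from 314 to 1133 (median 780) in Sox3-positive cells and from 358 to 2081 (median 807) in Sox3-low cells.

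Axial progenitor genes were present in both groups. Of 28 genes, 25 were compared, 1 was past 1 upward and 0 downward, and their median was 0.00, or 0.06 without CS37 to CS47. T itself ran from 114 to 590 FPKM (median 307) in Sox3-positive cells and from 35.7 to 888 FPKM (median 336) in Sox3-low cells. The log2 mean of T was 8.14 ± 0.70 against 8.09 ± 1.27 (SD over cells), an adjusted difference of 0.08, or 0.21 without CS37 to CS47. The groups differed in T by far less than the spread between cells, and both its lowest and highest values lay in Sox3-low cells.

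Nkx1-2, a homeobox gene of the caudal epiblast, was at 1 FPKM or more in 8 of 22 Sox3-positive cells (36.4%, interval 17.2% to 59.3%) and in 4 of 31 Sox3-low cells (12.9%, interval 3.63% to 29.8%). Its highest value was 84.1 FPKM with Sox3 and 7.20 FPKM without. The intervals cover counting error only and do not compare the groups. The adjusted difference of Nkx1-2 was 0.50. Without CS37 to CS47, Nkx1-2 was found in 2 of 12 and 3 of 30 cells and the difference was 0.10. Hes3, a repressor of the Hes family that marks caudal progenitors, was found in 6 of 22 and 11 of 31 cells, with an adjusted difference of -0.88, or -0.52 without CS37 to CS47. Nkx1-2 and Hes3 were both higher in Sox2+ than in T+ cells in bulk (56.3 against 1.00 FPKM and 45.7 against 0.208 FPKM), and in the single cells they differed in opposite directions.

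Caudal signalling genes showed differences smaller than their spread over cells. Wnt3a, the Wnt ligand of the tail bud, was at a median of 37.1 FPKM with Sox3 and 20.8 FPKM without, an adjusted difference of 0.62. Fgf8, the main FGF ligand there, was at 126 and 152 FPKM, a difference of -0.36. Cyp26a1, which breaks down retinoic acid, was at 167 and 178 FPKM, a difference of -0.40. Cdx2, a caudal homeobox factor, was at 1 FPKM or more in 12 of 22 and 13 of 31 cells, with a difference of 0.17. Without CS37 to CS47 these differences were 0.28 for Wnt3a, -0.05 for Fgf8, 0.13 for Cyp26a1 and 0.06 for Cdx2, so that of Cyp26a1 changed sign.

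Mixl1, a homeobox gene of the primitive streak, was the axial progenitor gene past 1. It was at a median of 22.3 FPKM (0 to 110) in Sox3-positive cells and 1.11 FPKM (0 to 83.2) in Sox3-low cells. The log2 mean was 3.60 ± 2.41 against 1.92 ± 2.15 (SD over cells), an adjusted difference of 1.19, and the groups overlapped over nearly the whole range. Mixl1 was at 1 FPKM or more in 16 of 22 Sox3-positive cells (72.7%, interval 49.8% to 89.3%) and 16 of 31 Sox3-low cells (51.6%, interval 33.1% to 69.8%). Without the cells titled CS37 to CS47 the difference was 0.57. In bulk, Mixl1 was lower in Sox2+ cells (4.36 FPKM) than in T+ Sox2+ (8.48) or T+ cells (8.00).

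**Figure D2:**
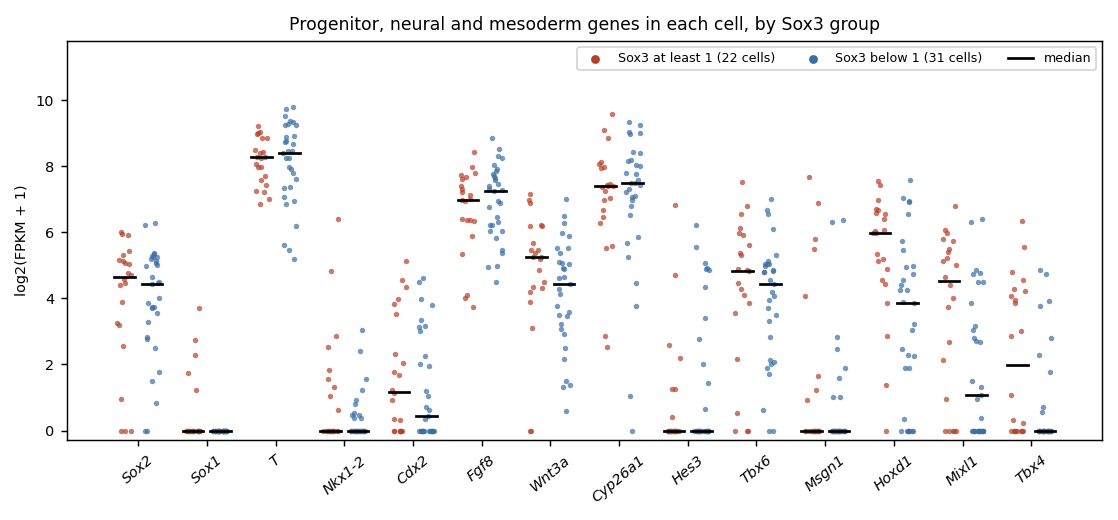
Level of 14 genes as log2(FPKM + 1), 1 point per cell, in 22 Sox3-positive cells (red) and 31 Sox3-low cells (blue), with the median as a black bar. Sox1 has values above 0 in 5 red cells and no blue cell, T and Sox2 overlap, and Hoxd1, Mixl1 and Tbx4 have higher medians in red.

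Presomitic genes had a median near 0, whose sign depended on the cells and genes taken. Of 33 genes, 22 were compared, 1 was past 1 upward and 0 downward, and the median was 0.04. It was -0.15 without CS37 to CS47, -0.08 with any Sox3 above 0 and -0.09 over genes found in at least 20 cells. Tbx6, a T-box factor that presomitic cells need, had a median of 27.6 FPKM (0 to 181) with Sox3 and 20.4 FPKM (0 to 129) without. It was at 1 FPKM or more in 18 of 22 and 28 of 31 cells, with an adjusted difference of 0.06, or 0.56 without CS37 to CS47. Msgn1, a bHLH factor of presomitic mesoderm, was found in 7 of 22 Sox3-positive cells (31.8%, interval 13.9% to 54.9%) and 8 of 31 Sox3-low cells (25.8%, interval 11.9% to 44.6%). The Msgn1 difference was 0.59, or 0.33 without CS37 to CS47. Cells with both Tbx6 and Msgn1 numbered 6 of 22 and 8 of 31. A Sox3 reading was thus found together with presomitic transcripts in single cells. Hes7, the oscillating repressor of the segmentation clock, had the second highest difference of the list, 0.91, or 1.46 without CS37 to CS47. Mesp2, Ripply1 and Uncx, genes of forming somites, were below 1 FPKM in every cell.

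Hoxd1 was the presomitic list member past 1 and the compared list gene with the largest difference. This anterior-group Hox gene is also expressed in presomitic mesoderm. It was at a median of 62.0 FPKM (0 to 186) in Sox3-positive cells and 13.4 FPKM (0 to 191) in Sox3-low cells. Only 1 of 22 Sox3-positive cells was listed at 0, against 7 of 31 Sox3-low cells. The log2 mean was 5.30 ± 1.90 against 3.34 ± 2.48 (SD over cells), an adjusted difference of 1.73. Without CS37 to CS47 it was 1.40. Over 19 alternative settings the Hoxd1 difference stayed above 0 and ran from 0.38, with a Sox3 threshold of 10 FPKM, to 2.31. Hoxd1 was named for its difference and the settings reuse the same cells, so this is no separate check. Settings that change only the gene filter cannot move the value of a gene and left it at 1.73. Bulk levels of Hoxd1 ran the other way along the Sox3 order, at 31.9 FPKM in T+, 22.8 in T+ Sox2+ and 22.4 in Sox2+ cells. Hoxd1 lies on chromosome 2 at 74762980 to 74765142 (RefSeq, GRCm38.p6).

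Other Hox genes had smaller differences than Hoxd1. All 15 genes of Hox groups 1 to 5 were compared, and 1 was past 1, with a median of 0.28 and 9 above 0. Hoxb1, of the same paralog group as Hoxd1, had 0.41. Hoxd3 and Hoxd4, its neighbours in the HoxD cluster, had 0.30 and 0.51. In groups 6 to 9 all 12 genes were compared and the median was 0.03. Hoxb6 was the 1 gene of these groups past 1, at -1.15, with medians of 20.2 FPKM with Sox3 and 22.7 FPKM without. Without CS37 to CS47 the Hoxb6 difference was -2.09, and with Sox3-positive set at 10 FPKM it was 0.16. Hoxb6 overlaps the antisense gene Hoxb5os, and the cell libraries' counting is not stated to use strand. Groups 10 to 13 were sparse. Hoxa10 was at 1 FPKM or more in 9 of 22 and 5 of 31 cells, with a difference of 0.60. Hoxa11 was found in 3 Sox3-positive cells and Hoxd11 in 4, with 0 Sox3-low cells for both. These genes were singled out after their values were seen. Their counts are not adjusted for gene number, and how many equally sparse genes lie within a single group was not counted.

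Mesoderm outside the paraxial lineage was read from lists for lateral and intermediate plate and for blood. Tbx4, a T-box factor of the allantois and hindlimb field, was the 1 of 11 compared lateral plate genes past 1. It was at 1 FPKM or more in 12 of 22 Sox3-positive cells (54.5%, interval 32.2% to 75.6%) and 7 of 31 Sox3-low cells (22.6%, interval 9.59% to 41.1%). The log2 mean was 2.24 ± 2.26 against 0.82 ± 1.55 (SD over cells), with an adjusted difference of 1.28. Without CS37 to CS47, Tbx4 was found in 4 of 12 and 6 of 30 cells and the difference was 1.07. Its bulk order was opposite to that of Sox3, with 12.8 FPKM in T+, 1.78 in T+ Sox2+ and 0.139 in Sox2+ cells. Hand1, another lateral mesoderm factor, had -0.88. Summed FPKM of the 20 lateral plate genes ran from 2.83 to 636 (median 145) with Sox3 and from 0 to 334 (median 154) without.

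Markers of other cell types had list medians from -0.46 to 0.25. Of 19 endothelium and blood genes, 5 were compared, with a median of 0.00, or -0.25 without CS37 to CS47. The globins Hba-x, Hbb-y and Hbb-bh1 were below 1 FPKM in every cell. For notochord and node 4 of 12 genes were compared (median -0.03, or 0.03 without CS37 to CS47), and for gut and extraembryonic endoderm 3 of 17 (median -0.46). Notochord and node genes summed to medians of 361 FPKM with Sox3 (up to 679) and 366 FPKM without (up to 979). Summed endoderm FPKM was 2.08 to 442 with Sox3 and 3.87 to 315 without, and Afp, Ttr and Hnf4a were below 1 FPKM in every cell. Surface ectoderm had a median of -0.22 over 8 genes, and neural crest 0.20 over 3, with Sox10 and Foxd3 below 1 FPKM throughout. Feeder fibroblast genes summed to 0 to 192 FPKM with Sox3 and 0 to 63.8 without, with a median difference of 0.25 over 4 genes, and Col1a1, Col3a1 and Postn were below 1 FPKM in every cell. Pluripotency and epiblast genes had a median of -0.43 over 4 genes, all below 0, with Nanog at -0.48, or -0.30 without CS37 to CS47. They summed to medians of 743 FPKM with Sox3 (up to 1395) and 736 FPKM without (up to 1919). None of these 7 lists had a gene past 1 with all cells.

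Among 16 Wnt targets the median was 0.09, or -0.11 without CS37 to CS47, and Nkd1, a Wnt feedback inhibitor, was past 1 downward at -1.07. Nkd1 had medians of 19.3 FPKM with Sox3 and 20.9 FPKM without, and its difference was -1.67 without CS37 to CS47 and 0.26 with Sox3-positive set at 10 FPKM. Axin2, the most used Wnt feedback target, had 0.50. FGF targets had a median of -0.18 over 10 genes and 0 past 1, with Spry2, an FGF feedback inhibitor, at -0.71, or -1.39 without CS37 to CS47. Retinoic acid genes had a median of -0.31 over 9 genes and 0 past 1. Among 14 genes of the Notch pathway and segmentation clock the median was -0.15, or 0.06 without CS37 to CS47, with 0 past 1. In that list Notch3, a Notch receptor, was at 1 FPKM or more in 1 of 22 Sox3-positive cells (4.55%, interval 0.115% to 22.8%) and 14 of 31 Sox3-low cells (45.2%, interval 27.3% to 64.0%). Its adjusted difference fell just short of -1, and Notch3 was singled out after its values were seen. The intervals do not allow for that choice and are no test. How many compared genes were detected as unevenly was not counted. Epithelial genes had a median of -0.22 over 8 and mesenchymal genes -0.05 over 14, with 0 past 1 in both.

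Of 49 cell cycle genes compared, 4 (8.16%) were past 1 in either direction, close to the 7.30% of all compared genes. Mitosis genes were below 0 in 19 of 26 cases, with a median of -0.28 and 2 genes past 1 downward. The median over all compared genes was -0.007. Without the gene-number term the mitosis median was -0.06. All members were read in the same cells, so the 26 genes are not separate observations. Bub1, a spindle checkpoint kinase, was at a median of 34.9 FPKM with Sox3 and 59.1 FPKM without, an adjusted difference of -1.27. The Bub1 difference was no longer past 1 without CS37 to CS47 (-0.83), without the gene-number term (-0.93) or with Sox3-positive set at 5 FPKM (-0.68). Ccnb2, a mitotic cyclin, was at 53.1 and 77.5 FPKM, a difference of -1.05. The Ccnb2 difference was past 1 downward in 12 of 19 alternative settings, and it was -0.62 with any Sox3 above 0. The mitotic kinesin Kif11 stood at the other end with 0.95, and Cdk1 had -0.08, or -0.16 without CS37 to CS47. The summed level of the mitosis list was 1413 to 3016 FPKM (median 2189) with Sox3 and 1803 to 3371 FPKM (median 2389) without, so the groups overlapped. DNA replication genes had a median of 0.00 over 23 genes, or -0.20 without CS37 to CS47. Tyms, which makes thymidylate, had log2 means of 4.58 ± 1.92 with Sox3 and 3.21 ± 1.88 without (SD over cells), an adjusted difference of 1.23. Ung, a DNA repair glycosylase, was at medians of 6.53 and 15.9 FPKM, a difference of -1.06. The Ung difference was past 1 downward in 10 of 19 alternative settings. Ubiquitous reference genes had a median of 0.05 over 15, dissociation stress genes -0.21 over 5 and p53 targets 0.02 over 9. The reference genes ran from -0.68 for Tbp to 0.84 for Gusb.

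Over the 27 lists, 252 genes were compared. Of these, 4 (1.59%) were higher by at least 1 and 5 (1.98%) lower, below the 3.64% and 3.66% of all compared genes, and their median was -0.01. Without the gene-number term 0 of the 5 lower list genes stayed past 1, with Bub1 at -0.93, Ccnb2 at -0.87, Hoxb6 at -0.69, Nkd1 at -0.63 and Ung at -0.61. The named list members past 1 do not come from 1 lineage.

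**Figure D3:**
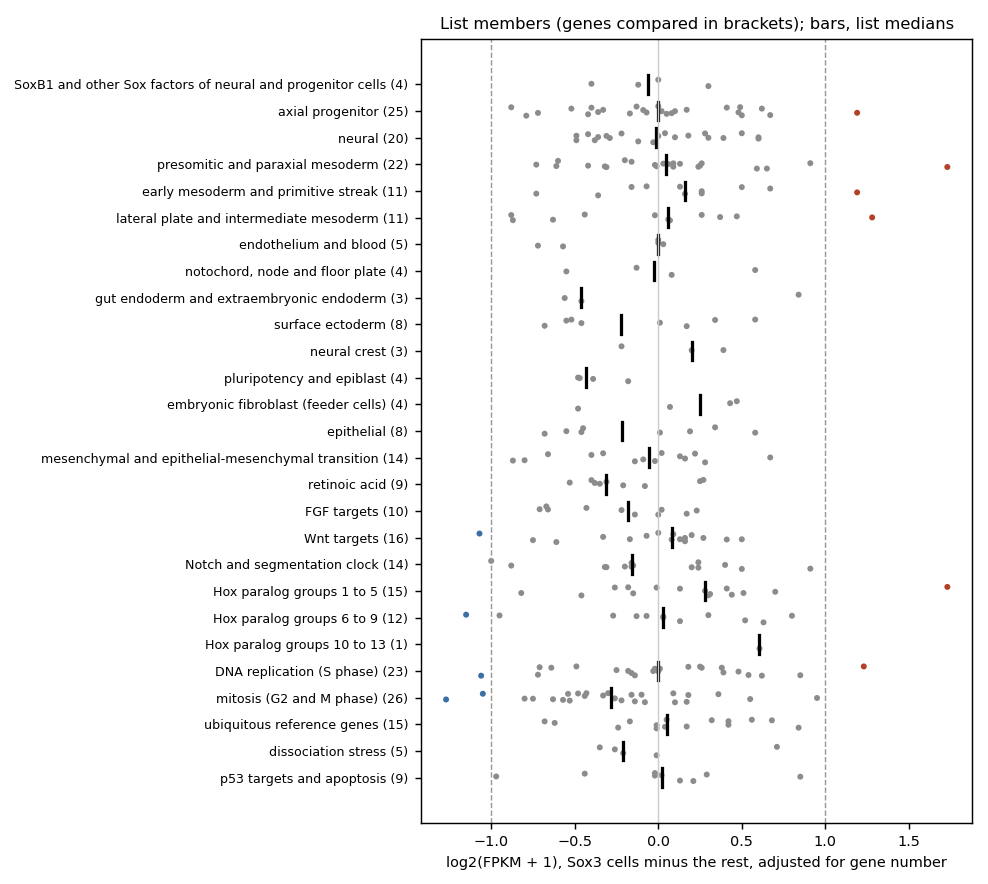
Adjusted log2 difference (Sox3-positive minus Sox3-low) of each compared gene in 27 lists, with the number compared in brackets, bars at list medians and dashed lines at -1 and 1. Most members lie between the dashed lines, 4 genes are above 1 (red, Hoxd1 and Mixl1 in 2 lists each) and 5 below -1 (blue).

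The largest differences were ranked over all compared genes found in at least 50% of the cells of the higher group. The 15 highest ran from 1.87 to 3.01 and the 15 lowest from -2.55 to -1.66. Of the 30, 0 belong to a list. Only 252 of the 8762 compared genes are list members, so a count near 0 among 30 genes says little about the lists. The adjusted differences chose these genes, so they are a description. Acyp1, an acylphosphatase, led with 3.01. It was at a median of 106 FPKM (0 to 359) in Sox3-positive cells and 0 FPKM (0 to 275) in Sox3-low cells. Acyp1 was at 1 FPKM or more in 18 of 22 and 13 of 31 cells, and its log2 mean was 5.26 ± 3.03 against 2.45 ± 3.19 (SD over cells). The groups overlapped, and the difference came with cells listed at 0, which numbered 4 with Sox3 and 16 without. Acyp1 overlaps Zc2hc1c on chromosome 12.

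The other 14 of the highest genes serve housekeeping or varied roles. Asb13, a substrate adaptor of a ubiquitin ligase, had 2.43. Rpp21, a subunit of RNase P, had 2.40, and Ciart, a repressor in the circadian clock, had 2.38. Ciart was at 1 FPKM or more in 15 of 22 Sox3-positive and 9 of 31 Sox3-low cells. Ankra2 (2.22), Fam118b (2.19) and the ubiquitin ligase gene Rnf138 followed. Tbca, a tubulin folding cofactor, had 2.09 and was found in all 22 Sox3-positive cells and 26 of 31 Sox3-low cells. Zfp688, a zinc finger gene, had 2.08, and Mrpl53, a mitochondrial ribosomal protein, 2.03. Trappc2l of the vesicle tethering complex (1.99), Bcl2l2, an inhibitor of apoptosis (1.98), and Apbb1, an adaptor of the amyloid precursor protein (1.97), were close to each other. Rpa3, the small subunit of the single-strand DNA binding complex, was the most widely detected. Its median was 220 FPKM (9.11 to 731) with Sox3 and 64.5 FPKM (0 to 462) without, a difference of 1.94. Abt1 closed the group with 1.87. In 9 of the 15 genes the median of Sox3-low cells was 0 FPKM, so at least 50% of those cells were listed at 0.

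At the other end stood Naa20, the catalytic subunit of an N-terminal acetyltransferase, with -2.55. Naa20 was at a median of 13.4 FPKM (0 to 224) with Sox3 and 115 FPKM (0.998 to 760) without. It was listed at 0 in 4 Sox3-positive cells and in 0 Sox3-low cells. The spliceosome gene Prpf3 (-2.34), the centriole gene Cep83 (-2.05) and Scfd1, of transport from the endoplasmic reticulum to the Golgi (-2.03), came next. Zfp938, a zinc finger gene, showed the most one-sided detection of the 15. It was at 1 FPKM or more in 1 of 22 Sox3-positive cells (4.55%, interval 0.115% to 22.8%) and 18 of 31 Sox3-low cells (58.1%, interval 39.1% to 75.5%). Zfp938 was chosen by its difference among the 8762 compared genes. Its intervals do not allow for that choice and are no test. The remaining 10 were Mrps22, Rpl30, Rangrf, Tmem214, Pnpt1, Dctn5, Arl6ip6, Rnf19a, Timm17b and Mapkap1. They include ribosomal proteins of mitochondria and cytosol, mitochondrial import and RNA processing genes and a dynactin subunit. Rpl30 is a gene with many processed copies, and reads shared with copies make its value uncertain. All 15 highest and all 15 lowest genes stayed past 1 in their direction without the cells titled CS37 to CS47. The cells left are among those that chose the genes, so this is no separate check. More genes were past 1 without CS37 to CS47, 690 higher and 579 lower against 319 and 321 with all cells. Of the 30, 10 overlap another RefSeq gene.

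**Figure D4:**
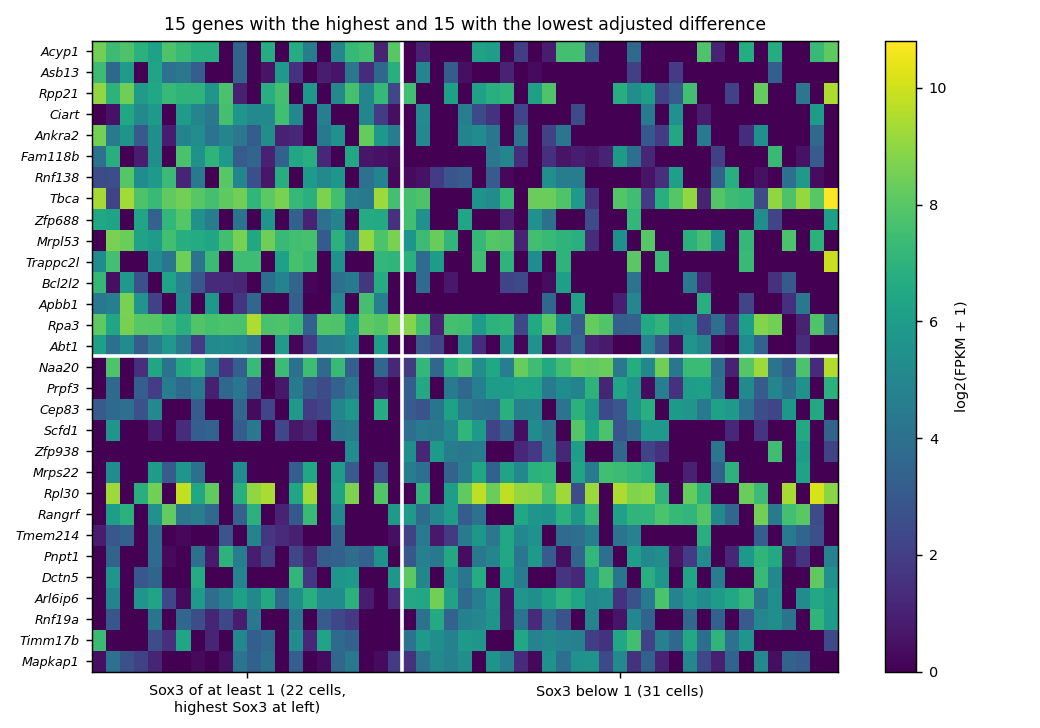
Level of 30 genes as log2(FPKM + 1) in each cell, with the 15 highest adjusted differences above and the 15 lowest below. Columns are 22 Sox3-positive cells ordered by Sox3 (left of the white line) and 31 Sox3-low cells; dark squares are cells at 0, which occur in both groups for most genes.

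Genes detected in nearly every cell were seldom past 1. Among genes at 1 FPKM or more in 30 to 39 cells, 5.87% were higher and 5.30% lower by at least 1. These shares were 4.77% and 4.60% for 20 to 29 cells and 4.46% and 5.10% for 40 to 49 cells. Genes found in 10 to 19 cells also had low shares, 2.18% and 1.75%. Among genes found in 50 to 53 cells the shares were 0.651% and 1.37%, which is 10 and 21 of 1536 genes. Few widely detected genes therefore differed by this much between the groups.

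Bulk fractions gave a reading the division did not use. The 319 genes higher in Sox3-positive cells had a median log2(FPKM + 1) difference of 0.029 between Sox2+ and T+ cells, and the 321 lower genes had 0.021, beside -0.002 over 8683 compared genes. Of the higher genes, 9 were higher by at least 1 in Sox2+ cells (2.82%), beside 2.63% of all, and 4 were lower (1.25%), beside 2.28% of all. Of the lower genes, 7 were higher (2.18%) and 5 lower (1.56%). Both sets therefore had bulk medians near 0, although Sox3 itself differed strongly between those fractions. Acyp1 was at 10.6, 13.5 and 14.5 FPKM in T+, T+ Sox2+ and Sox2+ cells, and Naa20 at 29.7, 29.3 and 34.3 FPKM. Between T+ Sox2+ and T+ cells the medians were 0.013 for the higher genes and -0.010 for the lower genes, and between Sox2+ and T+ Sox2+ cells -0.002 and 0.033. The bulk contrasts share libraries and the fractions are from TS12, not TS13.

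**Figure D5:**
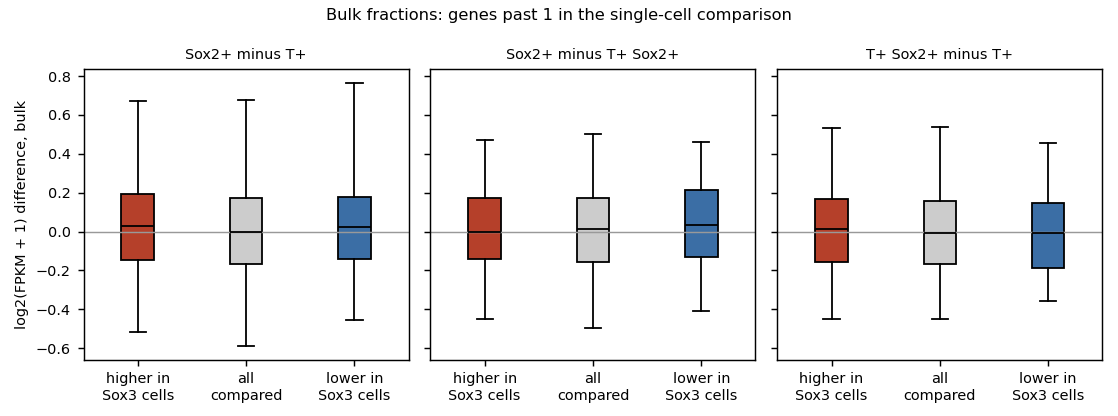
Bulk log2(FPKM + 1) differences between pairs of sorted fractions for genes higher by at least 1 in Sox3-positive cells (red), all compared genes (grey) and genes lower by at least 1 (blue). Boxes show the quartiles and median and whiskers the 5th to 95th percentile of genes; the 3 boxes in each panel have medians within 0.05 of 0.

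T knockout cells gave a further bulk reading. Sox3 was at 2.12 FPKM in wild-type and 6.24 in T knockout T+ cells at TS12, and at 1.99 and 11.0 FPKM at TS13. Genes higher in Sox3-positive single cells had median knockout-minus-wild-type differences of 0.012 at TS12 and -0.073 at TS13. For the lower genes these were -0.016 and -0.097, beside 0.031 and -0.040 over all compared genes. Sox3 was higher in both knockout libraries, and neither set had a median above that of all compared genes. Hoxd1, higher in Sox3-positive cells, was at 39.6 FPKM in wild-type and 20.2 FPKM in knockout cells at TS13, and Mixl1 at 6.53 and 0.194 FPKM. Genotype and substrain cannot be told apart in these libraries, and each has no replicate.

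The 6 cells with at least 10 FPKM of Sox3 show how the programmes combined in single cells. The cell with the most Sox3, CS90 at 36.1 FPKM, had T at 530 FPKM, Sox2 at 0.919 FPKM and Tbx6, Nkx1-2 and Sox1 at 0, with the fewest genes of any cell (4075). CS38, at 28.5 FPKM of Sox3, had Nkx1-2 at 84.1, Sox2 at 26.1, T at 114 and Tbx6 at 21.3 FPKM, and it also held Sox1 at 1.34 FPKM. CS92, at 16.1 FPKM, had Sox2 at 59.9 and Tbx6 at 0.451 FPKM. These 3 cells shared high Sox3 and differed in the other genes. CS41 and CS42, at 10.5 and 10.4 FPKM of Sox3, both had Msgn1 (44.6 and 54.7 FPKM) and Tbx6 (18.6 and 13.4 FPKM) beside Sox2 (31.9 and 63.0 FPKM). CS16, at 10.2 FPKM, had the highest Sox1 of all cells, 12.1 FPKM, with Tbx6 at 62.5 FPKM and T at 356 FPKM. Of the 6 cells, 5 had Hoxd1 above 1 FPKM and 3 had Sox1. High Sox3 thus occurred with Tbx6 in 4 of them and with Msgn1 in 3.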

How the data were processed

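Single T+ Sox2+ cells and bulk sorted fractions were analysed as deposited. The authors deposited 1 FPKM value per gene symbol and cell or library, and 23983 symbols per table. Per the submitters' processing notes, the tools for the cells were TopHat2 2.1.0, Bowtie, Cufflinks 2.2.1 and Cuffnorm on mm10; the role of each is not given in the sources used here. Per the labels' protocols, 55 capture sites held cells on visual inspection; 53 cells are in the table, all were kept, and no doublet caller was run. FPKM levels were not compared across the 3 tables; gene sets from the cells were read in the bulk tables.

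Members, lists and tests were chosen with earlier results of these data known. Small RNA genes, numbered or clone-named models, mitochondrial genes, ribosomal pseudogenes and joined symbols were left out (19499 symbols kept). Differences are ordinary least squares coefficients on log2(FPKM + 1) with the number of genes at 1 FPKM or more as a term, in Python 3.11 with numpy 2.4.6, pandas 2.3.3 and scipy 1.17.1; the code was tested on simulated data. Cells are 1 sample a group, so no p-value was computed; intervals are exact Clopper-Pearson at 95%. A bulk difference was taken where either library had 1 FPKM or more. Genes named are the 15 highest and 15 lowest adjusted differences found in at least 50% of the cells of the higher group, list members past 1, and Sox2, Sox1, T, Tbx6, Msgn1, Nkx1-2, Cdx2, Fgf8, Wnt3a, Cyp26a1 and Hes3; other list members illustrate their list. Alternatives changed the gene-number term, Sox3 threshold, pseudocount, filter, scaling and cells.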

Additional observations from a re-analysis of the deposited data

How the results depend on the processing

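Over 19 alternatives the medians of the neural, axial progenitor and presomitic lists ran from -0.31 to 0.08, -0.16 to 0.30 and -0.15 to 0.19. Each range spans 0, so the sign of each median depended on the settings. All moves were below 1 SD of the list's level over cells, a wide yardstick that does not measure how stable a median is. Counts past 1 depended on the settings. Genes higher and lower numbered 544 and 121 without the gene-number term, 483 and 397 with Sox3-positive set at 5 FPKM, 875 and 819 at 10 FPKM, and 1005 and 1002 for cells at 10 FPKM or more against cells at 0. A pseudocount of 0.1 gave 1022 and 967, and one of 10 gave 23 and 5. Within 3 bands of gene number 429 were higher and 208 lower. Without the cells titled CS37 to CS47, an alternative chosen after seeing the data, 690 were higher and 579 lower; a further term for the title number over CS1 to CS47, also chosen then, gave 411 and 411. The thresholds and left-out cells also make smaller groups, and the cause of the changed counts was not tested. The other alternatives kept both counts within 1.5 times. Of the named genes past 1, Hoxb6 (0.16), Nkd1 (0.26) and Rangrf (0.17) changed sign with Sox3-positive set at 10 FPKM, which leaves 6 cells. The share of Sox3-positive cells was 22.6% at 5 FPKM and 11.3% at 10 FPKM. The difference in median genes per cell changed sign, from 566 to -163, without the cells titled CS37 to CS47. Bulk medians between Sox2+ and T+ cells ran from 0.019 to 0.030 for the higher genes and from 0.018 to 0.024 for the lower genes. A reading of 0 in 1 cell does not show that a gene is off, and depth per cell is unknown. No paired analysis was possible because all cells come from 1 pool and each bulk group has 1 library.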
